A study of Homo sapiens with 3 samples.

Results

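In 3 single-cell libraries of co-cultured Caco-2 and HT29 cells, 243 of 15560 cells met limits on marker genes of both lines, and 175 of them also carried wider gene panels of both. Caco-2 and HT29 are established human colorectal carcinoma lines. They were seeded together on Transwell inserts at 9 parts Caco-2 to 1 part HT29 and harvested on day 23, as 2 untreated controls and 1 library treated with lipopolysaccharide (LPS), a bacterial cell wall component, at 1 ng/ml from day 22 for 24 h. All 3 libraries came from the same mixture of 2 cancer lines. The labels do not say whether each library was a separate Transwell, and the LPS library has no replicate. A cell here is a barcode with at least 1500 unique molecular identifiers (UMIs, each standing for 1 captured RNA molecule), at least 700 genes and at most 20% of UMIs on mitochondrial genes. The 243 cells, called both-limit cells below, had at least 0.1% of their UMIs on 8 HT29 genes together (LYZ, KRT20, LCN2, CD24, CD44, CST6, TCN1 and BMP4) and at least 0.5% on APOA1 and APOC3. HT29-limit cells met the first limit only (2583 cells), Caco-2-limit cells the second only (7803 cells), and 4931 cells met neither.

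When kept at confluence, Caco-2 cells take on features of the absorptive enterocyte and make lipoproteins. APOA1 and APOC3, neighbouring genes on chromosome 11 (GRCh38 116835751 to 116837622 and 116829706 to 116833072), encode apolipoproteins of those particles. HT29 cells can turn toward mucus-secreting and other fates. LYZ (chromosome 12, 69348381 to 69354234) encodes lysozyme, which Paneth cells secrete in the small intestine, SLPI (chromosome 20, 45252239 to 45254564) an antiprotease of mucosal surfaces, and PAGE4 (chromosome X, 49829260 to 49834264) a cancer/testis antigen. In a droplet library 1 barcode stands for 1 droplet, which can hold more than 1 cell and also takes up RNA free in the suspension. Whether a both-limit barcode held 1 cell or 2 cannot be told apart from its counts alone, so these cells were set beside every sum of 1 HT29-limit and 1 Caco-2-limit cell of the same library that also met both limits, called summed pairs.

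The both-limit cells made up 1.69% of cells in control 1 (86 of 5093, 95% exact binomial interval 1.35 to 2.08%), 1.51% in control 2 (80 of 5307, 1.20 to 1.87%) and 1.49% in the LPS library (77 of 5160, 1.18 to 1.86%). The 3 intervals overlap, and they cover counting error only. Among all pairs of cells outside the class, 7.12%, 6.15% and 4.75% in the same order had summed counts that met both limits. By the limits themselves, each such pair had to hold 1 HT29-limit and 1 Caco-2-limit cell. The limits cut through a continuous range. Within 10% of the HT29 limit, 13, 8 and 7 both-limit cells lay just inside and 14, 14 and 10 cells just outside. For the APOA1 and APOC3 limit the counts were 10, 8 and 8 inside and 11, 8 and 8 outside. The lowest HT29 gene sum of a both-limit cell was 0.1004% of UMIs in control 1, against 0.0998% for the highest cell left out there.

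The libraries held 24185467 to 33893707 UMIs in 5811 to 6838 barcodes, and the kept cells had a median of 3676 to 5496 UMIs. Between 5 and 8 barcodes of kept cells were shared by a pair of libraries, none of them a both-limit cell. Barcodes were deposited from 500 UMIs upward, and no doublets were removed here.

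Both-limit cells were deeper than cells of either single class and shallower than summed pairs in all 3 libraries. Their median was 9423.5 UMIs in control 1, 6009.5 in control 2 and 5647 in the LPS library. Caco-2-limit cells had medians of 5532, 4334.5 and 3744 UMIs, and HT29-limit cells 5277.5, 3783 and 3710.5. The ratio to Caco-2-limit cells was 1.53 ± 0.16 and that to HT29-limit cells 1.63 ± 0.14 (SD, n = 3 libraries). Summed pairs had medians of 11379, 8393 and 7731 UMIs, so the both-limit cells reached 0.828, 0.716 and 0.730 of them. Each cell of a pair had to reach 1500 UMIs by itself, while a both-limit cell needed 1500 in all. The lowest both-limit cells had 1723, 1621 and 1700 UMIs. The filter thus set a higher floor for pairs, which bears on this gap. In control 2, 65% of the both-limit cells lay under the lower quartile of the pairs, against 46.5% in control 1 and 50.6% in the LPS library. With 3 paired libraries an exact permutation test cannot give a two-sided p under 0.25, so no test was run on these medians.

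**Figure D1:**
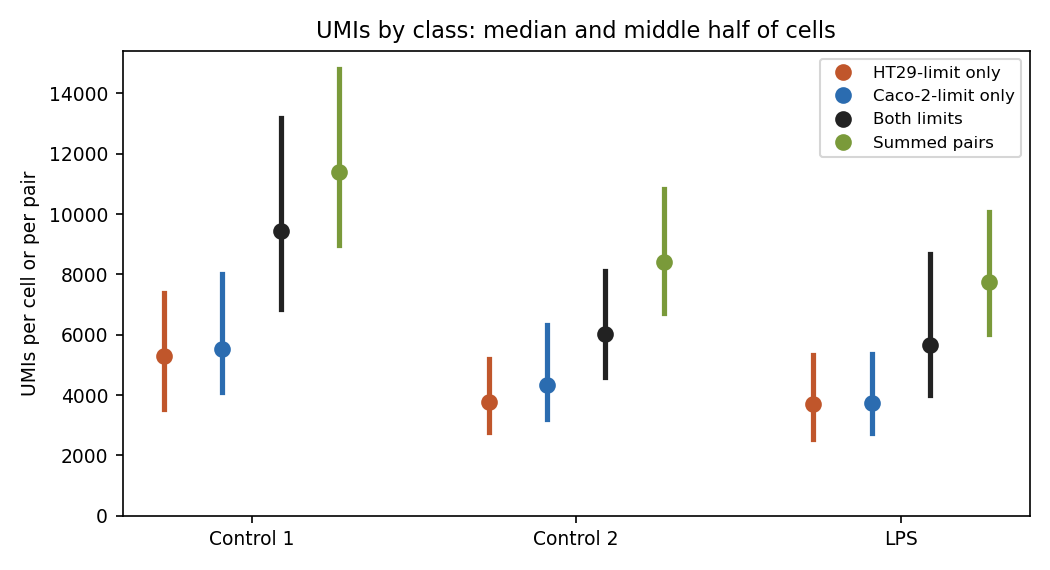
UMIs per cell or per summed pair (vertical axis) in each library, for HT29-limit cells, Caco-2-limit cells, both-limit cells and summed pairs. Points are medians and bars run from the lower to the upper quartile. In each library the both-limit median lies above those of the single classes and below that of the pairs, at 9423.5, 6009.5 and 5647 UMIs.

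At a common depth the number of genes per cell lay between the single classes. With each cell thinned to 1500 UMIs, the expected number of genes had a median of 760, 773 and 789 in both-limit cells of control 1, control 2 and the LPS library. Caco-2-limit cells had 719, 725 and 729 genes and HT29-limit cells 802, 807 and 813. Without thinning, the both-limit medians were 2770, 2133 and 2039 genes, the highest of the 3 classes in each library. The mitochondrial share was 3.32%, 3.89% and 4.60% of UMIs, against 3.85%, 4.52% and 4.83% in Caco-2-limit and 3.07%, 2.91% and 3.67% in HT29-limit cells.

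The genes of the rule are described here without a test, since their values chose the cells. The 8 HT29 genes together took a median of 0.153%, 0.145% and 0.155% of UMIs in both-limit cells, and 0.296%, 0.280% and 0.296% in HT29-limit cells. APOA1 and APOC3 together took 0.779%, 0.762% and 0.836%, against 1.15%, 0.981% and 0.936% in Caco-2-limit cells. LYZ stood at 653.5, 681.3 and 796.6 CPM (UMIs of a gene scaled to a fixed library total, the usual counts-per-million, after adding up all cells of a class) in control 1, control 2 and the LPS library. HT29-limit cells had 1315, 1238 and 1265 CPM of LYZ, and Caco-2-limit cells 30.8, 31.4 and 22.4 CPM. KRT20, a keratin of mature intestinal cells, was at 267.6, 289.3 and 255.8 CPM in both-limit and 542.1, 519.4 and 543.0 CPM in HT29-limit cells. CD24, a surface glycoprotein, was at 221.4, 293.1 and 345.3 CPM, against 599.4, 607.5 and 648.6 CPM. CD44, the hyaluronan receptor, and LCN2, an iron-scavenging defence protein, were at 99.8 to 131.4 and 91.5 to 116.5 CPM. BMP4, a growth factor of the TGF-β family, was at 155.1, 160.5 and 203.8 CPM. TCN1, a vitamin B12 binder, and CST6, a protease inhibitor, were the scarcest, at 9.33 to 50.9 and 9.33 to 29.6 CPM. APOA1 was at 5340, 5523 and 5137 CPM and APOC3 at 4029, 3461 and 4116 CPM, both below Caco-2-limit cells in each library, at 6050 to 7853 and 5014 to 5122 CPM.

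The rule set a floor under the sum of the 8 HT29 genes in both-limit and HT29-limit cells and kept the other cells below it. That choice also bears on which genes make up the sum, so the make-up is given as a description only. In both-limit cells the make-up was close to that of HT29-limit cells. LYZ held 41.6% ± 1.2 of the 8 genes' UMIs in both-limit cells and 39.3% ± 0.6 in HT29-limit cells (SD, n = 3 libraries). In the few UMIs that Caco-2-limit cells had on these genes LYZ held 29.3% ± 4.0, and in cells under both limits 23.6% ± 2.1. CD24 held 16.7% ± 2.6, against 19.1% ± 1.2 in HT29-limit, 20.3% ± 3.8 in Caco-2-limit and 35.9% ± 3.1 in the cells under both limits. BMP4 held 10.1% ± 0.7, against 9.1% ± 0.5 in HT29-limit and 18.7% ± 4.7 in Caco-2-limit cells. The both-limit and HT29-limit ranges overlapped for CD24 and not for LYZ or BMP4. A both-limit cell had UMIs on a median of 5, 4 and 4 of the 8 genes in the 3 libraries. LYZ had at least 1 UMI in 87.2%, 93.8% and 83.1% of both-limit cells, and in 11.5%, 10.5% and 6.84% of Caco-2-limit cells, whose median depth was lower. Without LYZ, 51, 45 and 36 of the 86, 80 and 77 cells would have fallen under the HT29 limit, which left 111 cells.

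**Figure D2:**
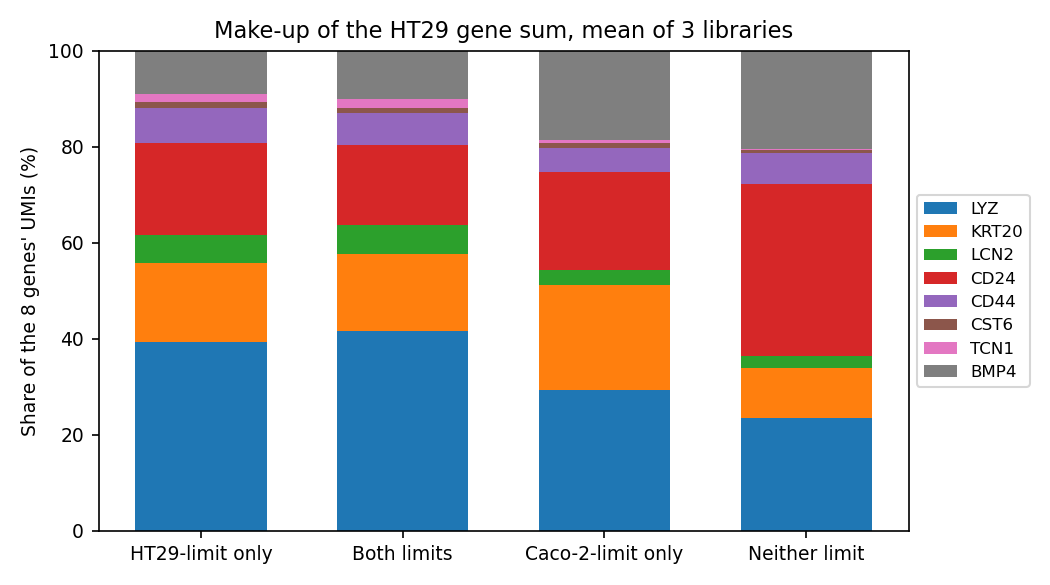
Share of the UMIs on the 8 HT29 genes (vertical axis, mean of 3 libraries) that each gene held in HT29-limit, both-limit, Caco-2-limit and remaining cells. The LYZ segment is 41.6% in both-limit and 39.3% in HT29-limit cells, and the CD24 segment is largest, at 35.9%, in cells under both limits.

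Summed over the class, RNA of both lines was present beyond the 10 genes of the rule. A panel of 30 genes was taken for each line in control 1, as those with the largest ratio between HT29-limit and Caco-2-limit cells at 50 CPM or more, without the genes of the rule. In control 1 the panels therefore share their cells with the classes, and control 2 and the LPS library did not enter the choice. The HT29 panel summed to 5028, 4478 and 5042 CPM in both-limit cells of control 1, control 2 and the LPS library. HT29-limit cells had 9505, 8961 and 8397 CPM, and Caco-2-limit cells 196.7, 314.2 and 248.6 CPM. The Caco-2 panel summed to 8430, 6638 and 9541 CPM, between 630.4, 663.1 and 829.5 CPM in HT29-limit cells and 11672, 10852 and 12585 CPM in Caco-2-limit cells. On the HT29 panel the both-limit profile lay 51.9%, 48.2% and 58.8% of the way from Caco-2-limit to HT29-limit cells. On the Caco-2 panel it lay 29.4%, 41.4% and 25.9% of that way, nearer to the Caco-2 side. In control 1, control 2 and the LPS library 29, 30 and 30 of the 30 HT29 panel genes and 29, 30 and 27 of the 30 Caco-2 panel genes lay between the classes.

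The leading HT29 panel genes showed the same intermediate levels. TM4SF4, a tetraspanin-like membrane protein, was at 294.8, 474.1 and 490.9 CPM in both-limit cells, against 571.8, 798.0 and 847.4 in HT29-limit and 10.5, 20.6 and 14.1 CPM in Caco-2-limit cells. TIMP1, a metalloproteinase inhibitor, was at 342.2, 336.0 and 455.5 CPM, and ANXA1, annexin A1, at 119.6, 140.0 and 108.2 CPM. NUPR1 and NDUFA4L2, which respond to stress and hypoxia, were at 62.4 to 80.3 and 384.8 to 474.2 CPM. Each of these 5 genes was at 35.4 CPM or less in Caco-2-limit cells. Of the first 5 Caco-2 panel genes, ALB (albumin) was at 239.2, 162.4 and 324.5 CPM, and APOA4 (apolipoprotein A-IV) at 1563, 1288 and 1853 CPM. FGG (fibrinogen gamma chain) was at 22.9 to 74.7 CPM, S100G (a calcium carrier) at 22.4 to 66.6 CPM and MLN (motilin) at 85.9 to 112.3 CPM. S100G in the LPS library, at 66.6 CPM against 59.4 CPM in Caco-2-limit cells, was the only one of these 10 genes outside the range of its 2 classes.

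Cell by cell the panels split the class. A cell was counted as carrying a panel when the panel's share of its UMIs was at least 25% of the median in the line's own class. Of the 243 cells, 175 (72%) carried both panels, 48 the Caco-2 panel only, 15 the HT29 panel only and 5 neither. In control 1, control 2 and the LPS library 62, 60 and 53 cells carried both. These were 72.1%, 75% and 68.8% of the class, against 80.3%, 83.2% and 84.0% of summed pairs. Outside the class, 131 of 2583 HT29-limit cells (5.07%) and 159 of 7803 Caco-2-limit cells (2.04%) carried both panels. The cells with the Caco-2 panel only had medians of 4980, 5593.5 and 2717 UMIs, below the 10196, 6208.5 and 6799 UMIs of cells with both panels. On the 8 HT29 genes they had 336 UMIs in all, of which LYZ held 47.3%, CD24 20.5% and LCN2 0.893%. In the cells with both panels LYZ held 40.2%, CD24 15.8% and LCN2 7.15% of 2533 UMIs.

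**Figure D3:**
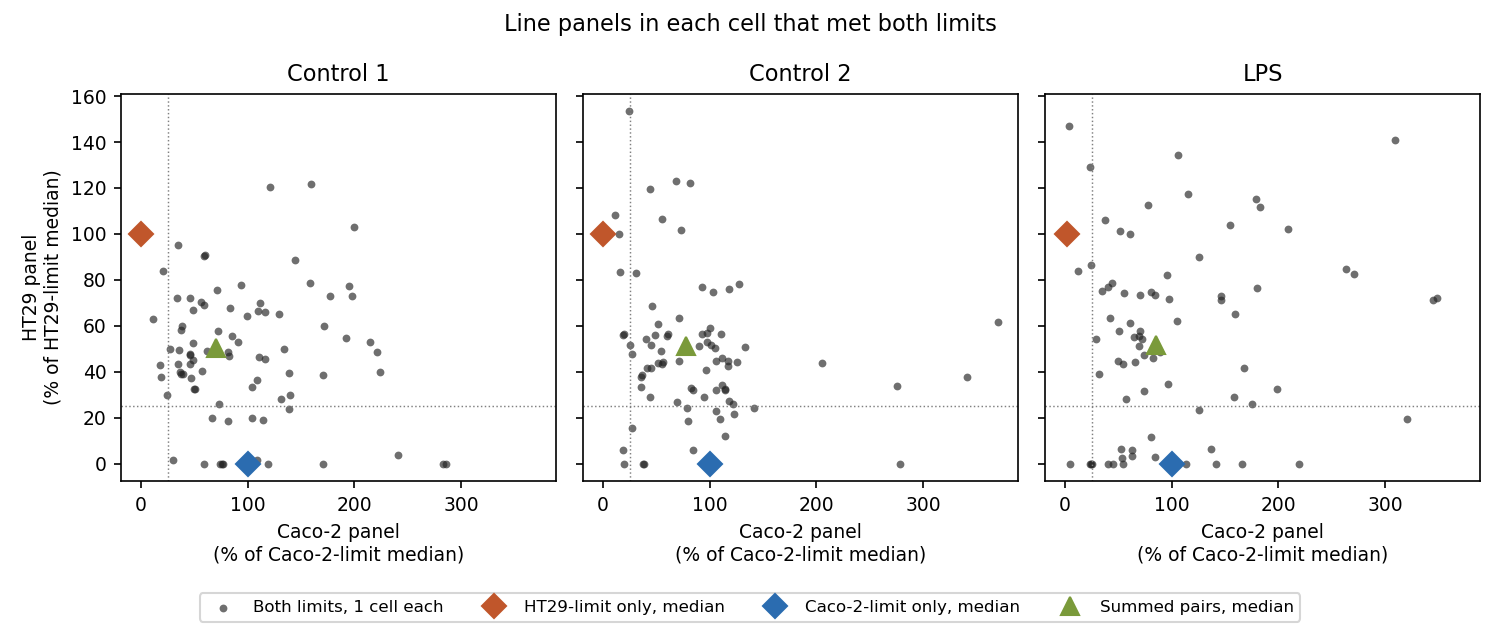
Each dot is 1 both-limit cell, placed by its Caco-2 panel (horizontal, % of the Caco-2-limit median) and its HT29 panel (vertical, % of the HT29-limit median) in each library, with dotted lines at 25%. Diamonds mark the medians of the single classes and triangles those of summed pairs. Most dots, 62, 60 and 53 by library, lie above and to the right of the lines, and a row of dots lies along the bottom, with few or no HT29 panel UMIs.

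Gene lists made elsewhere placed the class between the lines too. The study drew lists for each line from bulk RNA of monocultures in the Cancer Cell Line Encyclopedia. Genes of the HT29 list, without those of the rule, took a median of 12.6%, 12.2% and 12.2% of UMIs in both-limit cells. The medians were 15.9%, 15.6% and 15.2% in HT29-limit and 9.60%, 9.87% and 9.62% in Caco-2-limit cells. Genes of the Caco-2 list took 35.5%, 36.4% and 35.8% in both-limit cells. HT29-limit cells had 27.6%, 27.8% and 28.6%, and Caco-2-limit cells 39.3%, 39.6% and 39.7%.

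Across genes, counts were summed per class and library and tested with edgeR's quasi-likelihood test, with library as a block and Benjamini-Hochberg adjustment over 12628 genes. Against Caco-2-limit cells 1756 genes were higher (13.9% of those tested) and 1406 lower (11.1%) in both-limit cells. Against HT29-limit cells 1781 were higher (14.1%) and 1519 lower (12.0%). Genes of a line move with the genes of the rule, so these counts are given as a description. Of 1813 genes over 4-fold apart between the single classes, the both-limit level lay between them for 1691 (93.3%). The share was 86.6% of 2538 genes 2- to 4-fold apart and 44.1% of 8277 genes under 2-fold apart. Any mixture of the average profiles of the single classes lies between them, but a sum of particular cells of these classes need not. A gene outside both averages can therefore also come from a few cells. At an adjusted p under 0.05 against each class, 54 genes lay above both (0.428% of those tested) and 79 below both (0.626%). Of these, 48 and 77 were genes under 2-fold apart between the single classes. Of the 54 genes above both, 6 were over 2-fold above the nearer class.

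**Figure D4:**
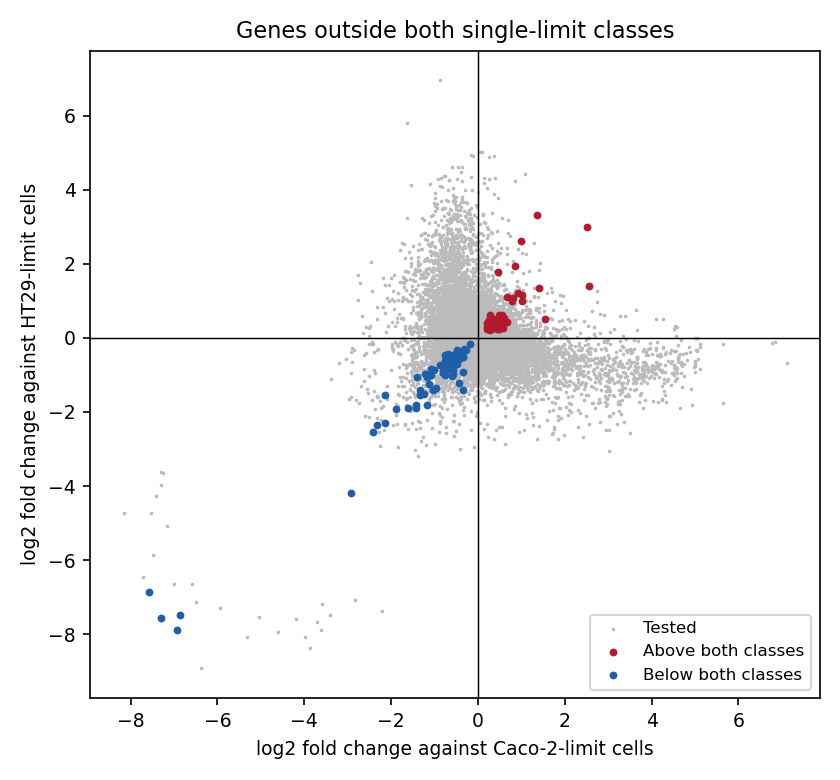
log2 fold change of both-limit cells against Caco-2-limit cells (horizontal) and HT29-limit cells (vertical) for each of 12628 genes. Red dots are the 54 genes above both classes and blue dots the 79 below both, and the blue dots beyond -6 on both axes had no UMI in both-limit cells, so that their place depends on the prior count.

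On the log2 scale, where a level midway in CPM lies nearer the higher class, enterocyte and liver-type secretory genes followed the Caco-2 side. Of 14 tested genes of mature enterocytes and lipid absorption, 14 were higher than in HT29-limit cells, and 11 were lower than in Caco-2-limit cells, with median log2 fold changes of 3.61 and -0.59, against -0.03 and -0.06 over all genes tested. FABP1, a fatty acid carrier, was at 2032, 2182 and 2275 CPM in control 1, control 2 and the LPS library, between 297.6, 312.1 and 301.3 CPM in HT29-limit and 3092, 2907 and 2840 CPM in Caco-2-limit cells. APOB, the core protein of chylomicrons, was at 288.9, 194.1 and 424.3 CPM and RBP2, a retinol carrier, at 468.8, 136.3 and 131.0 CPM. Of 12 fetal liver plasma protein genes, 10 were higher than in HT29-limit and 10 lower than in Caco-2-limit cells. Over all genes tested 14.1% were higher and 12.0% lower than in HT29-limit cells, and 11.1% lower than in Caco-2-limit cells. SERPINA1 (alpha-1 antitrypsin) was at 1734, 1596 and 1787 CPM, VTN (vitronectin) at 1134, 868.0 and 1159 CPM, AHSG (fetuin-A) at 693.8, 539.4 and 1013 CPM and TTR (transthyretin) at 461.7, 358.4 and 509.6 CPM. The brush border list was mixed. Of its 11 genes, 5 were higher and 3 lower than in HT29-limit cells, EZR (ezrin) among the latter, at 172.9, 153.1 and 176.8 CPM against 269.1, 234.8 and 244.4 CPM.

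Of 12 mitosis genes 9 were lower than in Caco-2-limit and 7 higher than in HT29-limit cells, and of 12 S phase genes 7 and 7. The shares over all genes tested were 11.1% and 14.1%. UBE2C, a ubiquitin-conjugating enzyme of mitosis, was at 159.8, 237.1 and 151.8 CPM in both-limit cells, between 58.6, 87.2 and 79.2 and 267.8, 310.9 and 213.6 CPM. TOP2A, topoisomerase II alpha, was at 98.3, 196.0 and 95.7 CPM and in the LPS library lay under the 100.9 CPM of HT29-limit cells. CENPF, a kinetochore protein, was at 37.9, 106.4 and 52.0 CPM, under HT29-limit cells in control 1 and the LPS library, at 44.2 and 55.5 CPM. Of 9 stem cell genes tested, 2 were higher and 1 lower than in Caco-2-limit cells, and 1 was higher and 2 lower than in HT29-limit cells. The shares over all genes were 13.9% and 11.1%, and 14.1% and 12.0%, and 9 genes are too few to set the stem counts apart from them. RNF43 and AXIN2, feedback inhibitors of Wnt signalling, were higher than in Caco-2-limit and lower than in HT29-limit cells. ASCL2, a stem cell transcription factor, went the other way. CDCA7 was at 14.2, 14.9 and 12.5 CPM, under both classes in each library, and did not pass either test (adjusted p = 0.068 and 0.25, edgeR). SOX9 was at 65.1, 78.4 and 68.6 CPM, within 64.8 to 93.8 CPM in the single classes.

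On the log2 scale the HT29-type lists followed the other side. Over all genes tested, 13.9% were higher than in Caco-2-limit and 12.0% lower than in HT29-limit cells. All 11 tested genes of squamous type and the kallikreins were higher than in Caco-2-limit cells, with a median log2 fold change of 4.18, and 8 were lower than in HT29-limit cells. KLK11, a kallikrein peptidase, was at 191.8, 177.3 and 226.7 CPM in both-limit, 304.7, 270.2 and 254.3 CPM in HT29-limit and 5.47, 8.67 and 5.16 CPM in Caco-2-limit cells. Of 11 interferon-induced genes 10 were higher than in Caco-2-limit and 8 lower than in HT29-limit cells. ISG15, a ubiquitin-like protein, was at 386.0, 270.7 and 530.4 CPM and IFI27 at 790.9, 580.5 and 655.2 CPM. Of 12 hypoxia and glycolysis genes, 8 were higher than in Caco-2-limit and 10 lower than in HT29-limit cells. SLC2A1, the glucose transporter GLUT1, was at 580.1, 673.8 and 684.3 CPM, between 181.7 to 258.0 and 1049 to 1302 CPM. Of 13 keratin and adhesion genes, 10 were higher than in Caco-2-limit and 8 lower than in HT29-limit cells. KRT19 was at 2851, 2833 and 2683 CPM. EPCAM, a pan-epithelial adhesion protein, was at 601.4, 688.8 and 630.2 CPM, close to 608.5 to 679.6 CPM in HT29-limit and 626.0 to 672.5 CPM in Caco-2-limit cells.

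Of 10 goblet genes tested, 4 were higher and 1 lower than in Caco-2-limit cells, and 2 were higher and 6 lower than in HT29-limit cells. The shares over all genes tested were 13.9% and 11.1%, and 14.1% and 12.0%, in the same order. AGR2, a mucin-folding enzyme, was at 806.3, 1271 and 1121 CPM, with a range that overlapped both single classes. MUC5AC, a secreted mucin, was at 16.6, 48.5 and 101.9 CPM, lowest in control 1, and at 70.1, 75.5 and 108.3 CPM in HT29-limit cells. SST (somatostatin) was at 0, 76.5 and 2.08 CPM, and all 41 of its UMIs in control 2 were in 1 cell. Of 8 Paneth genes other than LYZ, 3 could be tested, and 2 were higher than in Caco-2-limit cells, PLA2G2A and PRSS2. PRSS2, a trypsinogen, was at 20.1, 18.7 and 64.5 CPM, against 21.3, 9.28 and 8.29 CPM in Caco-2-limit and 247.5, 85.8 and 105.0 CPM in HT29-limit cells. PLA2G2A was also above HT29-limit cells and the pairs. REG3A was at 2.37 CPM in control 1 and at 0 in the other two libraries. Only 2 tuft, 3 BEST4 enterocyte and 3 M cell genes passed the filter on low counts.

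Of the genes the study lists for its LYZ-positive enterocyte-like cells, S100A4 was found in 89.5%, 93.8% and 87.0% of both-limit cells, SLPI in fewer and PAGE4 in 3.49%, 18.8% and 1.30%. At least 1 UMI of the HT29 panel was found in 87.2%, 95% and 85.7%. The study chose that list on these samples, so its direction here is not independent evidence. SLPI was at 262.8, 194.1 and 164.3 CPM in both-limit cells of control 1, control 2 and the LPS library. It was at 403.0, 236.2 and 219.7 CPM in HT29-limit and at 15.5, 25.2 and 16.6 CPM in Caco-2-limit cells. At least 1 SLPI UMI was found in 55.8%, 38.8% and 39.0% of both-limit cells, against 4.96%, 6.77% and 3.74% of Caco-2-limit cells. Its log2 fold change was 3.41 ± 0.18 (SE) against Caco-2-limit cells and -0.32 ± 0.15 against HT29-limit cells, where it did not pass the test (adjusted p = 0.12, edgeR). In cells with both panels SLPI was at 308.9, 228.0 and 181.9 CPM, and in cells with the Caco-2 panel only at 17.6, 15.8 and 32.8 CPM, near the Caco-2-limit level. S100A4, a calcium-binding protein, was at 2884, 1282 and 1789 CPM, between 5346, 2954 and 2940 and 245.7, 192.1 and 195.1 CPM. SPRR1B, a cornified envelope protein, was at 172.9, 80.3 and 72.8 CPM, below HT29-limit cells in each library and above Caco-2-limit cells, which were at 6.98 CPM or less. C1orf56 was at 29.6, 26.1 and 16.6 CPM and did not pass the test against Caco-2-limit (adjusted p = 0.10) or HT29-limit cells (adjusted p = 0.082).

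PAGE4 rested on few cells. It was at 30.8, 59.7 and 6.24 CPM in both-limit cells, against 8.60, 17.8 and 11.8 CPM in Caco-2-limit and 2.30, 4.26 and 4.67 CPM in HT29-limit cells. The controls lay above both classes, and the LPS library lay between them. PAGE4 passed the test against Caco-2-limit (log2 fold change 1.36 ± 0.27, SE, adjusted p = 1.9e-04) and HT29-limit cells (3.31 ± 0.36, adjusted p = 1.3e-09). In control 1 there were 26 PAGE4 UMIs in 3 cells, 23 of them in 1 cell. In control 2 there were 32 UMIs in 15 of 80 cells, with at most 4 in a cell, and in the LPS library 3 UMIs in 1 cell. Without the top cell of each library, control 2 alone stayed above both classes. In cells with the Caco-2 panel only PAGE4 was at 202.2, 142.3 and 49.1 CPM, and in those with both panels at 4.41, 54.1 and 0 CPM. Limited to the 175 cells with both panels, the log2 fold change against Caco-2-limit cells was 0.46 (adjusted p = 0.44, edgeR).

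**Figure D5:**
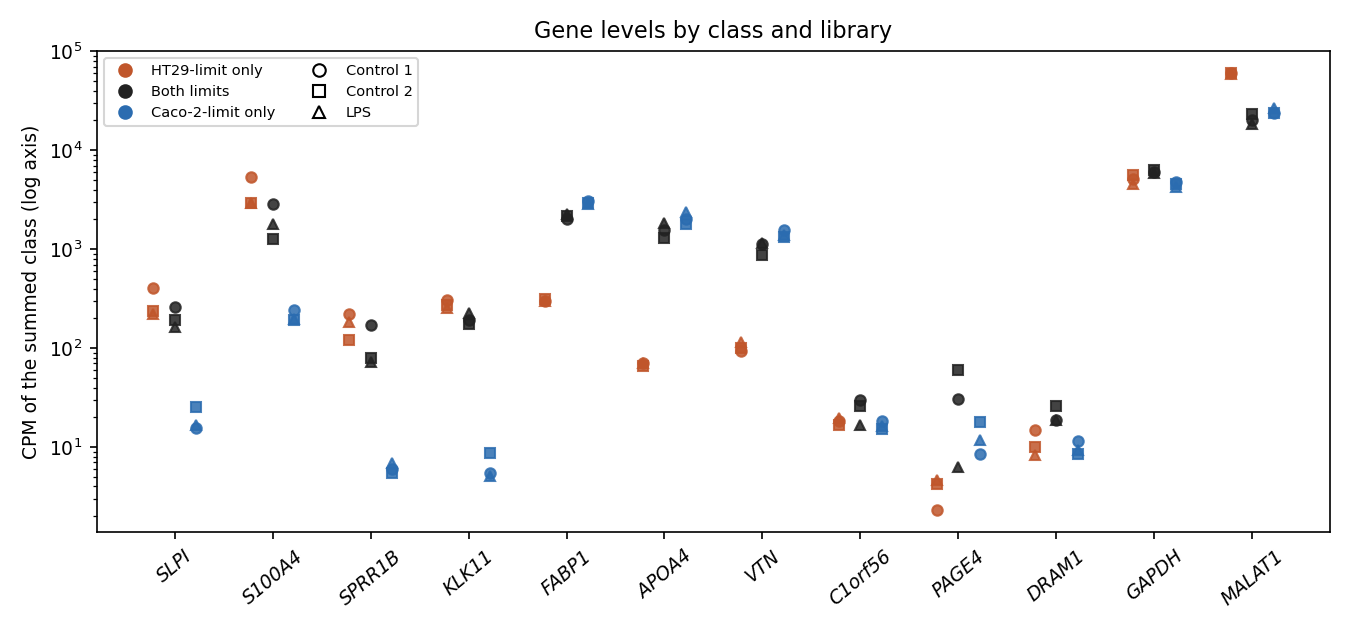
CPM (log axis) of 12 genes in HT29-limit, both-limit and Caco-2-limit cells, with 1 point per library, circles for control 1, squares for control 2 and triangles for the LPS library. On the log axis SLPI, S100A4, SPRR1B and KLK11 in both-limit cells lie nearer the HT29 side, and FABP1, APOA4 and VTN nearer the Caco-2 side. A level midway in CPM also lies nearer the higher class on this axis. GAPDH lies above and MALAT1 below both classes in each library, and PAGE4 spreads from 6.24 to 59.7 CPM.

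The genes furthest above both classes were of 2 kinds, those held by single cells and those spread thinly. By the size of the smaller fold change the first 10 were PAGE4, CST1, CXCL17, PAQR6, NIPSNAP3A, DRAM1, PLA2G2A, DUSP5, TAGLN and CCDC130. CST1, a secreted cysteine protease inhibitor, had 32, 2 and 9 UMIs, of which 31, 2 and 9 were in 1 cell of each library. TAGLN, transgelin, an actin-binding protein, had 37 of its 39 UMIs of control 1 in 1 cell. DUSP5, a MAP kinase phosphatase, had 30 of 52 UMIs there in 1 cell. The control 1 cell that held most CST1 was also the one with most PAGE4 and most FN1 (fibronectin). It had 6688 UMIs, no HT29 panel UMI and 2.98% of its UMIs on APOA1 and APOC3. In contrast, DRAM1, a lysosomal protein induced by p53, had 16, 14 and 9 UMIs in 13, 12 and 8 cells, and stood at 18.9, 26.1 and 18.7 CPM against 8.25 to 14.7 CPM in the single classes. PAQR6 was in 9, 5 and 4 cells with 1 UMI each, and NIPSNAP3A in 11, 11 and 7 cells. PLA2G2A owed its place to the LPS library, since in the controls it lay under Caco-2-limit cells, at 35.5 and 48.5 CPM against 40.9 and 58.5 CPM, and without the LPS library its log2 fold change against them was -0.30. CXCL17, a mucosal chemokine, had 12, 2 and 5 UMIs, and CCDC130 16, 12 and 7. Of the 53 genes above both whose symbol has 1 tested row, 38 were above both in all 3 libraries, and 30 of them still without the top cell.

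Of the 54 genes above both classes, 37 were less than 0.5 in log2 above the nearer one, and 3 abundant ones are described here after their values were seen. GAPDH, the glycolytic enzyme, was at 6088, 6275 and 5884 CPM in both-limit cells. HT29-limit cells had 5108, 5635 and 4593 CPM and Caco-2-limit cells 4782, 4611 and 4269 CPM, so the ranges did not overlap. FTL, the ferritin light chain, was at 9747, 10154 and 8603 CPM, against 8617, 9160 and 8086 and 5898, 6662 and 5719 CPM. COX5A, a subunit of cytochrome c oxidase, was at 500.8, 440.5 and 426.4 CPM, above 283.7 to 396.8 CPM in the single classes. Their log2 fold changes against the nearer class were 0.36 ± 0.05, 0.25 ± 0.05 and 0.27 ± 0.08 (SE). Among 90 nuclear genes of the respiratory chain and ATP synthase, 6 were above both classes and none below. Over all genes tested the shares were 0.428% above and 0.626% below. This group and the next were picked by their names after the values were seen. Of 79 cytosolic ribosomal protein genes 1 was above and 1 below. Of 13 mitochondrial genome genes 1 was below, and of 346 genes with a ZNF name 3 were below.

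MALAT1, a long RNA retained in the nucleus, was below both classes over the summed both-limit cells, though not in those with the Caco-2 panel only. It was at 20388, 23086 and 18588 CPM in both-limit cells of control 1, control 2 and the LPS library. HT29-limit cells had 59809, 60866 and 59043 CPM and Caco-2-limit cells 24030, 24061 and 27027 CPM. The both-limit value was the lowest of the 3 in each library, by a small margin in control 2. The log2 fold change was -0.34 ± 0.05 (SE) against Caco-2-limit (adjusted p = 8.8e-07) and -1.42 ± 0.05 against HT29-limit cells (adjusted p = 2.6e-24, edgeR). MALAT1 moved with depth as well. Among cells at or above the both-limit median depth of their library, its median share of UMIs was 0.982%, 1.87% and 0.490% in both-limit, 1.501%, 1.75% and 1.62% in Caco-2-limit and 2.70%, 3.13% and 3.27% in HT29-limit cells, so that in control 2 the both-limit cells were no longer lowest. Against single-limit cells between the lower and upper quartile of both-limit depths, the log2 fold changes were -0.29 and -1.24. By panels, MALAT1 was at 18801, 19172 and 13930 CPM in cells with both panels. In cells with the Caco-2 panel only it was at 31168, 27254 and 34445 CPM, above Caco-2-limit cells in each library. With each cell weighted equally the difference from Caco-2-limit cells no longer passed (adjusted p = 0.065). NEAT1, another nuclear RNA, lay between the classes at 1393, 2570 and 1832 CPM.

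Of the 79 genes below both classes, 24 had under 20 UMIs in both-limit cells. By fold change the first were IQCH-AS1, LINC00513, CHKB and AP001830.1, which had no UMI in the 243 cells. IQCH-AS1 was at 2.22 to 4.14 CPM in the single classes, so that a fold change against it has no firm size. ZNF460, TRAF2, ARPIN, AC009061.2, RMI1 and MATR3 followed, with at most 6 UMIs in all both-limit cells. MATR3 is listed under more than 1 identifier in the files, which makes its count uncertain. CALML4, a calmodulin-like protein of the brush border, was at 2.37, 9.33 and 8.32 CPM against 16.1 to 29.3 CPM. FOXA2, a transcription factor of gut endoderm, and DSP, desmoplakin of desmosomes, were at 33.6 to 41.6 and 152.7 to 255.8 CPM, against 53.6 to 58.7 and 225.0 to 291.4 CPM in the single classes.

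The genes above both classes were shorter than those below. The exons of a gene, merged over its transcripts in GENCODE, spanned a median of 2.37 kb for the 54 genes above both and 7.68 kb for the 79 below both, against 5.201 kb for all genes tested. With introns the medians were 9.77 kb, 44.5 kb and 30.9 kb. The same held against summed pairs, where the medians of merged exons were 2.22 kb for higher and 7.60 kb for lower genes, against 5.34 kb. These are descriptions, and the part that RNA quality or the state of the cell had in them was not tested.

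Summed pairs meet the same limits as the both-limit cells, but their values on the genes of the rule were not matched. Both-limit over pair medians for the HT29 genes of the rule were 0.900 (control 1), 0.891 (control 2) and 0.922 (LPS library). For APOA1 and APOC3 together they were 1.02, 1.03 and 1.16 in the same order. The cells of a pair were themselves classed by the limits. Genes that move with those of the rule can therefore still carry part of that choice. The 2 profiles were compared within libraries as log2(CPM + 5) by limma with library as a block, over 8029 genes with a mean of at least 10 CPM. In both-limit cells 97 genes were higher (1.21% of those tested) and 136 lower (1.69%), with a median log2 difference of -0.05 over all genes. Differences on this scale understate the change of scarce genes. With control 2 left out 17 and 30 genes passed, and with libraries not paired 0 and 1. Of the genes outside both single classes that could be tested here, 25 of 52 above and 29 of 60 below also differed from the pairs.

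MALAT1 differed from the pairs by -1.02 ± 0.04 and NEAT1 by -0.61 ± 0.06 (log2 difference, SE, adjusted p = 4.2e-14 and 1.5e-06, limma). GAPDH was higher by 0.29 ± 0.04 and FTL by 0.39 ± 0.03 (adjusted p = 5.5e-05 and 3.2e-07). Of 78 cytosolic ribosomal protein genes, picked by their names after the values were seen, 22 were higher and 8 lower. Over all genes tested the shares were 1.21% higher and 1.69% lower. Of 13 mitochondrial genome genes, picked likewise, 1 was higher and 4 lower, and of 107 genes with a ZNF name 0 and 2. Beyond these, the largest differences upward were CST1, PAGE4, PLA2G2A, DKK1, DRAM1, COTL1, FN1, ENTPD2, VSIG10L and SRM, with CST1 at 1.5 and SRM at 0.71. DKK1, a secreted Wnt inhibitor, was at 106.6, 59.7 and 49.9 CPM in both-limit, 56.7, 43.7 and 57.6 CPM in Caco-2-limit and 30.6, 22.0 and 18.1 CPM in HT29-limit cells. It was spread over 14, 17 and 11 cells, with at most 15 UMIs in 1 of them. SRM, spermidine synthase, was at 62.8, 56 and 54.1 CPM, and COTL1, an actin-binding protein, at 22.5, 28.0 and 29.1 CPM. FN1 had 87 of 148 UMIs in 1 cell of the LPS library. The largest differences downward were CALML4, LCN15, FRMD4B, MALAT1, NR1D2, PHC3, SH2D4A, UBE2V1, BTBD3 and PLA2R1, from -1.34 to -0.89. LCN15, a lipocalin, was at 73.4, 11.2 and 49.9 CPM against 138.0 to 213.1 CPM in HT29-limit cells, and NR1D2, a clock repressor, at 13.0, 7.47 and 6.24 CPM.

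Line genes differed from the pairs in both directions. Such genes move with the genes of the rule, which were not matched between both-limit cells and pairs. Their counts and calls are therefore a description. Of 366 tested genes of the HT29 encyclopedia list 7 were higher and 21 lower, and of 712 of the Caco-2 list 38 were higher and 29 lower. The shares over all 8029 genes were 1.21% higher and 1.69% lower. Of the mature enterocyte list 1 of 14 tested genes differed from the pairs, APOB, by -0.60 ± 0.09 (SE, adjusted p = 6.6e-04, limma). None of the 11 brush border, 7 goblet, 11 mitosis and 6 S phase genes tested did. At the shares over all genes lists this short would hold few calls, so this does not show that they match the pairs. At an unadjusted p under 0.05, 1379 of the 8029 genes differed. SLPI was higher than in the pairs by 0.37 ± 0.09 (adjusted p = 0.033), a call that did not hold when either control was left out, and S100A4 stood at -0.01 ± 0.06 (adjusted p = 0.97). AHSG and TTR were higher by 0.28 ± 0.07 and 0.34 ± 0.08 (adjusted p = 0.035 and 0.023), and KLK11 by 0.40 ± 0.10 (adjusted p = 0.037).

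The LPS library had no replicate, so its both-limit cells are set beside those of the controls without a test. At a ratio of 2 or more against both controls and at least 50 CPM on the higher side, 13 of 2719 genes were higher (0.478%) and 9 lower (0.331%) in the LPS library. The 2 controls differed from each other by the same ratio in 69 genes, a single comparison where the LPS genes had to pass against both controls. PLA2G2A, a secreted antimicrobial phospholipase, was at 307.8 CPM in the LPS library and 35.5 and 48.5 CPM in the controls, with 57 of its 148 UMIs in 1 cell. IFIT3, an interferon-induced gene, was at 60.3 CPM against 3.55 and 5.6 CPM, with 29 UMIs in 8 of the 77 cells. HT29-limit cells showed the same direction, with IFIT3 at 63.0 CPM against 10.3 and 14.6 CPM. S100A1 was at 108.2 CPM in both-limit cells of the LPS library against 34.3 and 35.5 CPM. UCA1, a long noncoding RNA, was at 39.5 CPM against 171.7 and 82.1 CPM, and IL18, a cytokine, at 27.0 CPM against 68.7 and 57.9 CPM. By the same measure 3 of 2886 genes were higher in the LPS library among HT29-limit cells and none of 2493 among Caco-2-limit cells. The 2 controls differed from each other in 16 and 0 genes there, against 69 in both-limit cells. Both-limit cells were also far fewer, 243 against 2583 and 7803. These counts therefore do not rank the classes by their difference between LPS library and controls.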

How the data were processed

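Single-cell RNA was counted in 3 libraries made with 10x Genomics chemistry. The authors used Cell Ranger and GRCh38 to make the deposited matrices of UMI counts, which are not normalized (the file headers carry software version 3.1.0). The study removed multiplets later, and the matrices reach below its minimums. Groups came from the labels. Cells were classed by the limits given above, and counts were summed per class and library. The members and gene lists were chosen with earlier results of these data known. Sums were tested with edgeR 4.0.16 (TMM, filterByExpr, library as block, since the classes of a library come from the same culture), and both-limit cells against the sum of every qualifying pair with limma 3.58.1 on log2(CPM + 5), at an adjusted p of 0.05. The SE of an edgeR fold change is its size over the square root of F. The genes of the rule counted toward library sizes and were not tested. DESeq2 1.42.0 was an alternative. The tests were tested on simulated data. Named genes were those of the rule and the study's LYZ-positive list, the 10 furthest above and below both classes and from the pairs, up to 4 per list by level, and the first 5 of each panel, while those picked after their values were seen are said to be. The labels do not give separate cultures for the controls beyond separate samples, so p-values measure the spread between these libraries and classes, and cells were not used as replicates. Gene positions and lengths are from GENCODE on GRCh38. Precision is limited by a median of 14, 9 and 10 UMIs on the 8 HT29 genes per both-limit cell of control 1, control 2 and the LPS library.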

Additional observations from a re-analysis of the deposited data

Results flagged for a closer look

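In 2 genes the LPS library and the controls moved in opposite directions between both-limit and Caco-2-limit cells. PAGE4, as log2 of (CPM + 5) in both-limit over Caco-2-limit cells, was -0.58 in the LPS library and 1.40 and 1.51 in the controls. The LPS value rests on 3 UMIs in 1 cell, and 23 of 26 UMIs in control 1 were in 1 cell. PLA2G2A was at 2.38 in the LPS library and at -0.18 and -0.25 in the controls, with 57 of its 148 LPS UMIs in 1 cell, the same cell that held the 3 PAGE4 UMIs. The difference between the treatments was not tested, since there is 1 LPS library.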

How the results depend on the processing

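Of 154 counts and values recomputed for the comparisons, 96 stayed within the spread or within 1.5 times, and 58 moved. Of 760 for single genes, 524 kept direction and call, 202 lost the call, 12 gained it and 22 turned direction. Genes with 3 or fewer both-limit UMIs under a setting were left out of these. The setting that paired all cells outside the class is among the recomputed ones, and it had to repeat the main values, since its qualifying pairs were the same.

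The limits mattered most. Doubled, they left 9 cells, and halved, 886. Doubled, the share was 0.0575% against 1.56%, the genes higher and lower were 107 and 447 against Caco-2-limit and 49 and 299 against HT29-limit cells, 1 lay above both, and 0 and 0 differed from the pairs. Halved, the share was 5.69%, 3157 and 2905 differed from HT29-limit cells, 92 lay above both, and 462 and 819 differed from the pairs. Without LYZ in the sum, the share was 0.714%, 1122 were higher than in Caco-2-limit cells, 858 and 861 differed from HT29-limit cells, 11 lay above both, and 27 and 24 differed from the pairs. The ratio of median UMIs to Caco-2-limit cells, 1.53, became 1.81 doubled, 1.33 halved and 1.35 without LYZ. That to HT29-limit cells, 1.63, became 1.79 doubled, and that to pairs 0.915 doubled and 0.657 halved. With only the 175 cells that carried both panels, an alternative added after the data were seen, as was the one matched on depth, the share was 1.13% and the ratios 1.70, 1.80 and 0.838. These settings change which cells enter, and no further cause was tested.

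Of the other settings, DESeq2 called 890 genes lower than in Caco-2-limit cells, 33 above both and 36 below both. Weighting each cell equally called 2703 genes lower than in HT29-limit cells and 120 below both. With no filter on low counts 28 lay above both, and with no filter on low values 0 and 0 differed from the pairs. With the deepest 5% of cells left out the share was 1.39%, and 46 genes were higher and 50 lower than in the pairs. The cause was not tested. With no replicate block, that is with libraries not paired, 18 genes lay above both, 43 below both, and 0 and 1 differed from the pairs.

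Leaving out 1 library at a time gave 1165 to 1526 genes higher and 757 to 994 lower than in Caco-2-limit cells, 1222 to 1461 higher and 932 to 1098 lower than in HT29-limit cells, 18 to 52 above both, 27 to 54 below both, and 17 to 106 higher and 30 to 196 lower than in the pairs. The count above both was 18 without control 1, and the counts against the pairs were lowest without control 2.

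Single genes turned direction as follows, in log2. Without LYZ in the sum, PAGE4 was at -0.31, PLA2G2A at -0.36 and TAGLN at -1.15 against Caco-2-limit cells, and S100A4 at 0.052, COTL1 at -0.16 and FN1 at -0.30 against the pairs. With both panels required, PLA2G2A was at -0.87, DUSP5 at -0.048 and TAGLN at -1.95 against Caco-2-limit and TAGLN at -0.88 against HT29-limit cells, and S100A4 at 0.10, PLA2G2A at -0.26 and FN1 at -0.33 against the pairs. Without the deepest cells, TAGLN was at -0.90 against Caco-2-limit and -0.0016 against HT29-limit cells. With doubled limits S100A4 was at 0.42 and FN1 at -0.19 against the pairs, and with all pairs, whether or not they met the limits, S100A4 was at 0.047. With 1 library left out, PLA2G2A was at -0.30 without the LPS library and TAGLN at -0.93 without control 1 against Caco-2-limit cells, and against the pairs SPRR1B ran from -0.053 without control 1 to 0.46 without the LPS library, and S100A4 from -0.11 without the LPS library to 0.11 without control 2.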
